A study of Mus musculus with 4 samples.

Results

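Aminoacyl-tRNA synthetases were followed in hair cells and non-hair cells of the mouse cochlea after a short exposure to gentamicin. The members were chosen by gene symbol: 20 cytosolic synthetases, and 16 mitochondrial ones whose symbols end in 2. All 36 were found among the 23420 genes listed, and all 36 held enough reads (at least 100 over the 12 replicates) to enter the tests, as did 16077 genes in all. Cochleae of CD1 mice carrying the Atoh1-GFP transgene were taken at postnatal day 1, cultured overnight at low oxygen and then left untreated or given 0.5 mM gentamicin for 3 h. The dissociated organs were sorted into GFP-positive hair cells and GFP-negative non-hair cells, which gave 4 groups of 3 replicates: control hair cells, gentamicin-treated hair cells, control non-hair cells and gentamicin-treated non-hair cells. Every group thus carries the reporter transgene and went through culture and sorting, the non-hair cells are a mixture of supporting cells and surrounding tissue, and the labels do not say which animals or cultures a replicate came from, so the p-values measure the spread between these replicates.

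The files hold a normalized read score for each gene, that is, reads scaled per replicate with 1 added. About 22400590 to 28152088 reads per replicate fell on genes. The labels of the sorted populations held: Atoh1, Pou4f3, Myo6 and Myo7a, which mark hair cells, were higher in control hair cells than in control non-hair cells by 7.24, 8.58, 4.45 and 7.25 on the log2 scale, and all 10 hair cell markers passed the test. The 9 mesenchyme markers were low in hair cells, with a summed score of 262 to 563 in control hair cells and 181 to 227 in treated hair cells against 5944 to 7469 in control non-hair cells. The summed score of the 10 supporting cell markers was 1907 to 2214 in control hair cells, 824 to 1563 in treated hair cells and 1454 to 2148 in control non-hair cells, so these markers were not depleted by the sort. The 5 neuron markers summed to 1093 to 1250 in control hair cells and 545 to 1361 in control non-hair cells. As a sum they were not depleted either, though 2 of the 5 were lower in hair cells. With gentamicin 5 of the 10 supporting cell and 4 of the 9 mesenchyme markers fell in hair cell libraries, where 14.8% of all genes fell. So did 3 of the 7 Schwann cell and 1 of the 7 endothelium markers. Of 8 macrophage, 5 erythroid and 5 neuron markers 0 fell, though macrophage and erythroid markers were mostly at the floor there. Over 152 genes more than 16 times higher in non-hair cells, picked for their low level in the same control hair cells, the other cells' RNA came to 2.17 to 4.06% of control and 1.06 to 1.51% of treated hair cell libraries. Its part in the results was tested only by subtracting this estimate, which does not cover supporting cells or neurons. In sorted bulk RNA, fewer cells of a type and less RNA per cell cannot be told apart.

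Each aminoacyl-tRNA synthetase joins an amino acid to the tRNAs that carry its anticodons, and so sets which amino acid the ribosome adds at a codon. Cytosolic and mitochondrial protein synthesis mostly use separate enzymes, all encoded in the nucleus, and the enzymes fall into class I and class II by the fold of their catalytic domain. Gentamicin is an aminoglycoside that binds the decoding site of bacterial ribosomes, and the ribosomes of mitochondria resemble those of bacteria. Loss of function of several synthetases, among them Hars2, Lars2, Nars2 and Kars, is a known cause of inherited hearing loss. In many cells, amino acid shortage or other stress raises the translation of Atf4, a transcription factor whose known targets include Asns, Ddit3 and a large group of cytosolic synthetases.

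In control cells the cytosolic synthetases were the more abundant set. Levels were set per length here, as the mean score less 1 per kb of merged exon (GENCODE M21). That length ran from 2.45 kb (Hars) to 18.1 kb (Eprs), with 11.3 kb for Mars2, and the order of the members depends on it. In control hair cells the 20 cytosolic members lay between 11.2 (Tars, threonyl-tRNA synthetase) and 39.9 (Gars, glycyl-tRNA synthetase) per kb, with a median of 21.0. With Lars2 left out, the 15 other mitochondrial members lay between 0.824 (Mars2, methionyl) and 11.2 (Tars2, threonyl), with a median of 4.74. The ranges came closest at Tars and Tars2, with 11.2 ± 0.602 and 11.2 ± 0.240 per kb (SD, n = 3). Among control non-hair cells, medians were 18.4 and 3.98 per kb. Lars2 stood apart from the other mitochondrial members, with 30.1 ± 13.4 per kb in control hair cells and 54.4 ± 12.3 in control non-hair cells (SD, n = 3). Its replicates also spread more widely than those of any other member in control hair cells.

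**Figure D1:**
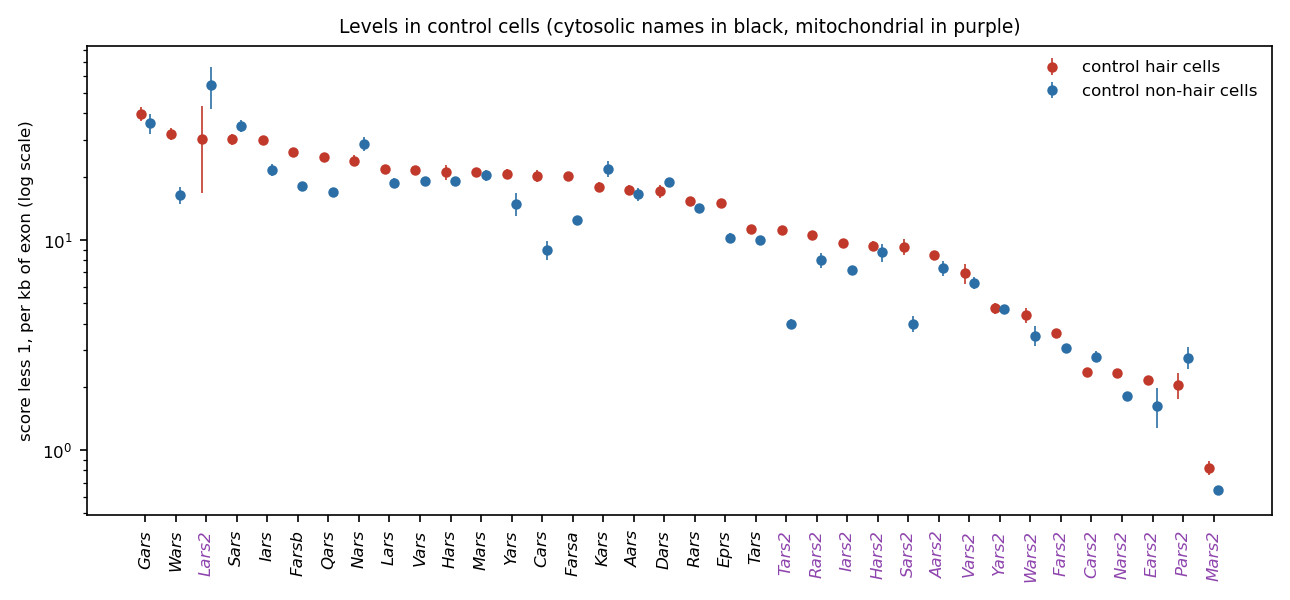
Levels of the 36 synthetase mRNAs in control hair cells (red) and control non-hair cells (blue), as the score less 1 per kb of exon on a log axis, with the mean of 3 replicates and the SD. Cytosolic members fill the left and mitochondrial members the right of the order, except for Lars2, and Wars, Cars, Tars2 and Sars2 show wide gaps between the populations.

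Most synthetases differed between the 2 control populations, as did most genes. In control hair cells 18 members were higher and 6 lower than in control non-hair cells at an adjusted p under 0.05, that is 66.7% of members against 74.1% of all genes tested. By direction the shares of all genes were 31.9% higher and 42.2% lower, beside 50% and 16.7% of members. This split depends on the scaling: by TMM 24 members were higher and 1 lower. Of all 16077 genes tested, 5698 were higher and 6237 lower by TMM. The median log2 difference, hair cells over non-hair cells, was 0.21 for the members and -0.12 for all genes. All 10 class I cytosolic members had a higher mean in hair cells, and 8 of them passed the test (Cars, Eprs, Iars, Lars, Qars, Vars, Wars and Yars), with a median log2 difference of 0.47. Eprs, for glutamate and proline, belongs to both classes and is counted with class I here. Of the 10 class II cytosolic members, 2 were higher (Farsa and Farsb, the subunits of phenylalanyl-tRNA synthetase) and 3 lower (Kars, Nars and Sars), with a median of 0.10. Among the mitochondrial members 8 were higher (Ears2, Iars2, Mars2, Nars2, Rars2, Sars2, Tars2 and Wars2) and 3 lower (Cars2, Lars2 and Pars2). There the classes lay closer: 5 of 9 class I members were higher and 2 lower, with a median of 0.31. Of 7 class II mitochondrial members 3 were higher and 1 lower, with a median of 0.22. The 12 members that did not pass were Aars, Dars, Gars, Hars, Mars, Rars, Tars, Aars2, Fars2, Hars2, Vars2 and Yars2, with log2 differences from -0.14 (Dars) to 0.22 (Fars2).

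The widest gap was that of Tars2, the mitochondrial threonyl-tRNA synthetase at chr3:95739976-95760206 (mm10). Its scores were 78.4, 76.7 and 80.0 in control hair cells, against 27.4, 28.0 and 30.5 in control non-hair cells. The replicates of each population lay close together and far from those of the other. The log2 difference was 1.45 ± 0.07 (SE, adjusted p = 4.55e-09), or 2.74-fold. Sars2, for mitochondrial serine, scored 34.6, 29.4 and 31.1 in hair cells and 13.7, 13.3 and 15.5 in non-hair cells, a log2 difference of 1.16 ± 0.10 (adjusted p = 1.10e-06). The cytosolic counterparts did not share this pattern: Tars gave a log2 difference of 0.17 ± 0.08 (adjusted p = 0.0627), and Sars was lower in hair cells, at -0.22 ± 0.09 (adjusted p = 0.0429). Same-numbered control replicates of the populations deviated together. With the replicate number as a block over all 12 replicates Sars no longer passed (adjusted p = 0.0502), which left 23 members. This block also ties treated to control replicates of the same number, so it is not a paired test of the controls alone.

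Among the cytosolic members, Cars (cysteine) scored 144, 129.7 and 128 in control hair cells against 56.4, 67.2 and 56.8, for a log2 difference of 1.16 ± 0.10 (adjusted p = 8.21e-07). Wars (tryptophan) scored 119, 108 and 107 against 55.4, 53.3 and 63.4, a log2 difference of 0.96 ± 0.09 (adjusted p = 1.99e-06). Farsa scored 96.8, 87.6 and 92.5 against 57.4, 56.3 and 59.0, a log2 difference of 0.68 ± 0.07 (adjusted p = 1.92e-06). In all 3 genes the lowest hair cell replicate lay above the highest non-hair cell replicate.

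The members lower in hair cells were Lars2, Pars2, Kars, Nars, Cars2 and Sars. Pars2, the mitochondrial prolyl-tRNA synthetase, scored 6.38, 7.33 and 8.14 in control hair cells against 10.7, 8.76 and 9.15, for a log2 difference of -0.39 ± 0.14 (adjusted p = 0.0217). Kars (lysine), which charges tRNA in both compartments, scored 81.8, 84.3 and 76.7 against 109, 94.2 and 92.7, a log2 difference of -0.28 ± 0.09 (adjusted p = 0.0104). Nars (asparagine) scored 111, 105 and 98.6 against 117, 136 and 125, a log2 difference of -0.26 ± 0.08 (adjusted p = 0.00906). Cars2, for mitochondrial cysteine, scored 17.9, 17.8 and 18.2 against 22.3, 21.2 and 19.9, a log2 difference of -0.23 ± 0.09 (adjusted p = 0.0307). The populations did not overlap in any of these 4 genes. With scaling by TMM, which moves the median of all genes by 0.08, Pars2, Kars, Nars, Sars and Cars2 no longer passed and Hars, Rars, Tars, Aars2, Fars2 and Hars2 passed as higher, which gave 24 higher members and 1 lower, Lars2. With 1 control replicate left out in turn, 17 of the 24 calls held in all 6 fits. Sars and Cars2 passed in 1 of them, Vars, Ears2 and Wars2 in 3, Pars2 in 4 and Mars2 in 5.

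To see how the synthetases answered the drug in hair cells, treated and control hair cells were compared. A gene was called when its fold change exceeded 1.2, up or down, and its unadjusted p lay under 0.01. Gentamicin changed 8 of 36 members, or 22.2%, where 27.5% of all genes tested were called. The 6 that rose make up 16.7% of members against 12.7% of all genes, and the 2 that fell 5.56% against 14.8%. The median log2 fold change was 0.07 over the members and -0.09 over all genes. At an adjusted p under 0.05 with no demand on fold, 10 members were called (27.8%), against 33.2% of all genes. The share called among synthetases was thus near that among all genes, and what follows describes the single members that passed.

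**Figure D2:**
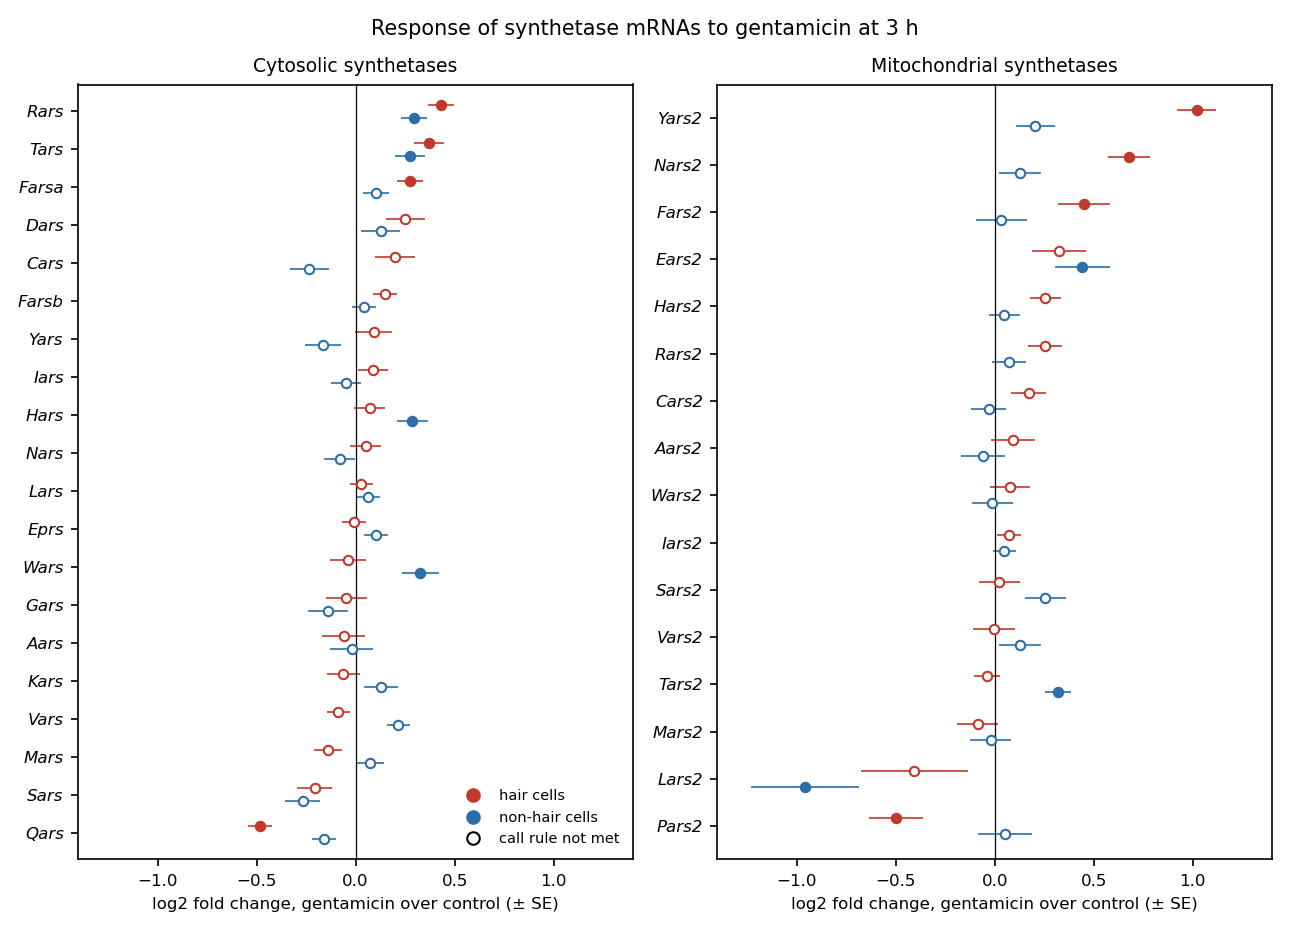
Log2 fold change of each synthetase mRNA, gentamicin over control, with its standard error, in hair cells (red) and non-hair cells (blue), for cytosolic members (left) and mitochondrial members (right). Filled points met the call rule. Yars2, Nars2 and Fars2 lie to the right in hair cells and near 0 to 0.20 in non-hair cells, Qars and Pars2 lie to the left in hair cells, and most cytosolic members lie within 0.3 of 0 in both.

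The largest change was in the mitochondrial set. Yars2, the mitochondrial tyrosyl-tRNA synthetase at chr16:16302965-16309640, scored 16.3, 14.9 and 16.5 in control hair cells and 31.8, 35.1 and 30.01 after gentamicin. Every treated replicate stood well above every control replicate. The rise was 2.03-fold, or 1.02 ± 0.10 on the log2 scale (SE, unadjusted p = 4.95e-07, adjusted p = 6.64e-05). Its cytosolic counterpart Yars gave 0.09 ± 0.09 (unadjusted p = 0.342).

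Nars2, which charges mitochondrial tRNA with asparagine and lies at chr7:96951505-97064758, scored 17.5, 17.5 and 16.8 in control hair cells and 29.2, 28.2 and 25.4 in treated ones. The groups did not overlap, and the rise was 1.60-fold, or 0.68 ± 0.11 on the log2 scale (adjusted p = 0.000845). Fars2, for mitochondrial phenylalanine at chr13:36117412-36726280, scored 22.5, 21.9 and 20.9 and then 28.5, 29.3 and 31.4, a rise of 0.45 ± 0.13 (adjusted p = 0.0210). Pars2, at chr4:106651069-106655282, went the other way, from 6.38, 7.33 and 8.14 to 5.25, 4.81 and 5.35. Pars2 fell by 0.50 ± 0.14 on the log2 scale (adjusted p = 0.0163). It holds the fewest reads of the members, 2104 over all replicates and as few as 91 in 1 replicate.

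Hars2 and Rars2, for mitochondrial histidine and arginine, lay just outside the rule. Hars2 scored 40.7, 39.2 and 43.6 in control and 50.2, 49.5 and 47.8 in treated hair cells, a log2 fold change of 0.26 ± 0.08 with an unadjusted p of 0.00759, but a fold change of 1.19. Rars2 gave 0.25 ± 0.09 with an unadjusted p of 0.0131 and an adjusted p of 0.0422. The treated replicates of both genes lay above all controls. Hars2 shares 195 bases of exon with Hars on the opposite strand, and Fars2, Nars2 and Ears2 likewise share 616, 284 and 89 bases with other genes, whose reads cannot be told apart without strand. Hars2 and Rars2 are the 2 members that the adjusted p alone adds to the 8.

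Among cytosolic members, Rars, Tars and Farsa rose in hair cells and Qars fell. Rars, the arginyl-tRNA synthetase of the multisynthetase complex at chr11:35808381-35834506, scored 51.6, 49.8 and 49.3 in control and 70.1, 71.2 and 62.3 in treated hair cells. The lowest treated replicate exceeded the highest control, and the rise was 1.35-fold, or 0.43 ± 0.06 on the log2 scale (adjusted p = 0.000646). Tars, at chr15:11382301-11399665, scored 71.1, 66.6 and 64.1 and then 83.0, 91.4 and 86.4, a rise of 0.37 ± 0.08 (adjusted p = 0.00392). Farsa, at chr8:84856989-84869257, scored 96.8, 87.6 and 92.5 and then 112, 119 and 104, a rise of 0.27 ± 0.07 (adjusted p = 0.00845) that sat at the edge of the fold demanded. Its partner subunit Farsb gave 0.15 ± 0.06 (unadjusted p = 0.0335).

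Qars, the glutaminyl-tRNA synthetase at chr9:108507706-108515941, was the cytosolic member that fell. It scored 166, 164 and 160.0 in control hair cells and 125, 116 and 110.1 after gentamicin. The groups lay far apart for their spread, and Qars fell by 0.48 ± 0.06 on the log2 scale (adjusted p = 0.000244). Within the multisynthetase complex, whose 8 synthetases are Dars, Eprs, Iars, Kars, Lars, Mars, Qars and Rars, 1 member thus rose and 1 fell in hair cells, and the median log2 fold change of the 8 was 0.01. The 2 called are 25.0% of the 8, near the 27.5% of all genes. Of the 3 scaffold proteins of this complex, Aimp2 and Eef1e1 rose and Aimp1 did not meet the rule. That is 66.7% of the 3, where 27.5% of all genes were called and 12.7% rose. Aimp2 scored 28.4, 24.7 and 25.6 and then 37.5, 33.2 and 32.7, a rise of 0.39 ± 0.09 (adjusted p = 0.00713). Eef1e1 scored 14.2, 13.9 and 15.2 and then 20.1, 16.9 and 20.1, a rise of 0.40 ± 0.10 (adjusted p = 0.00926). Aimp1 gave -0.05 ± 0.08 (unadjusted p = 0.594).

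With the estimated RNA of other cells subtracted, the same number of members, 8, was called in hair cells. Without control replicate 2, and likewise without gentamicin replicate 2, 5 members were called. Farsa (log2 fold change 0.23 to 0.32 over these fits), Fars2 (0.41 to 0.48) and Pars2 (-0.59 to -0.42) lost their call in both of those fits, and Fars2 also without control replicate 1 or 3 or gentamicin replicate 3 and Pars2 also without control replicate 3, while Rars, Tars, Qars, Nars2 and Yars2 held in all 6.

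**Figure D3:**
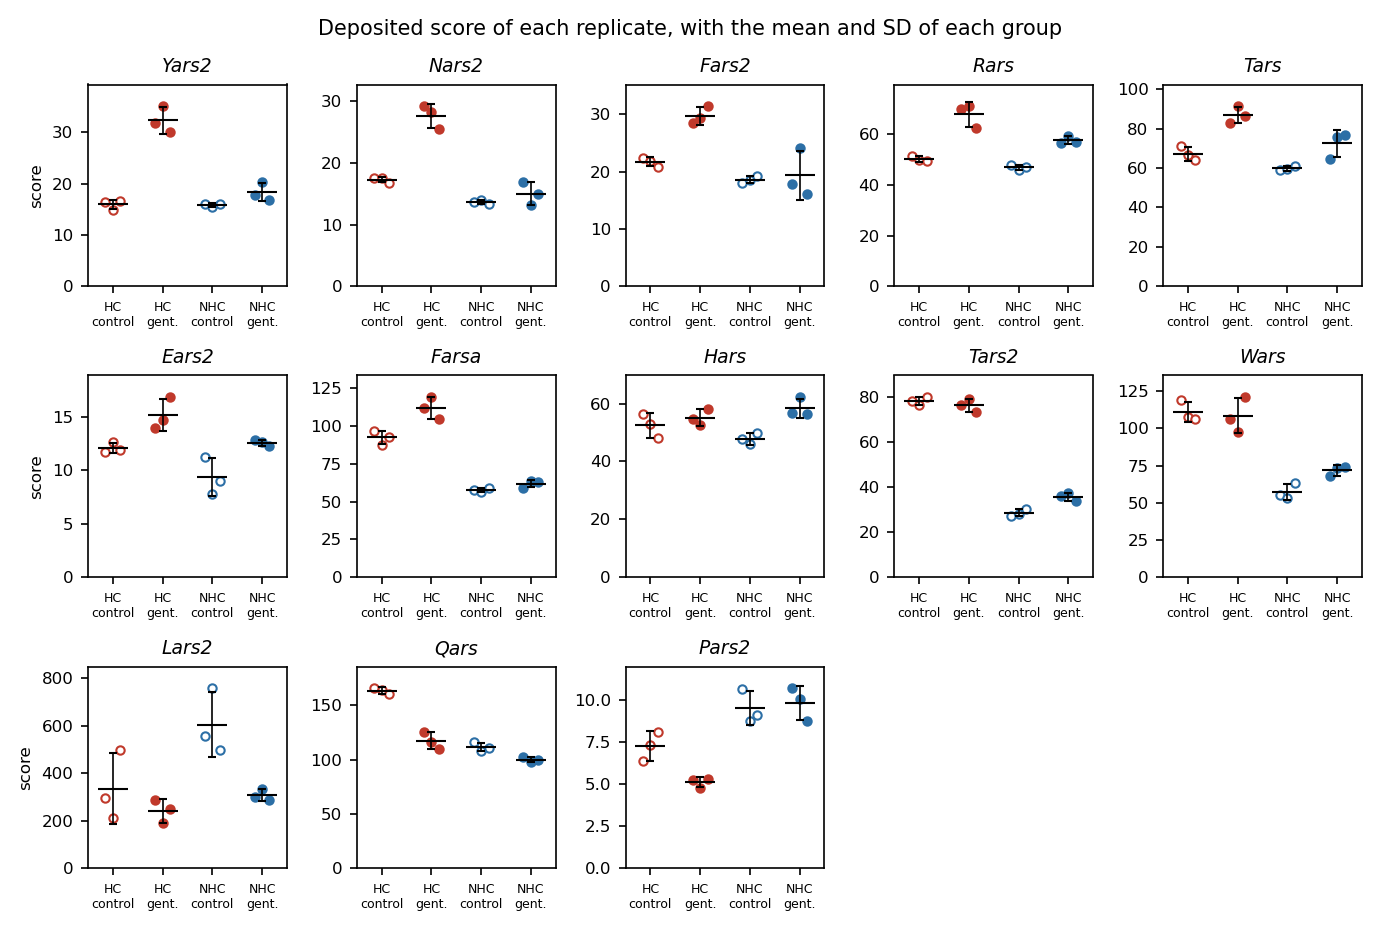
Deposited score of each replicate for the 13 members called in hair cells (HC) or non-hair cells (NHC), with open points for control, filled points for gentamicin, and bars for the mean and SD of each group of 3. Yars2, Nars2, Rars and Tars separate in treated hair cells, Tars2 separates mainly by population, and the control replicates of Lars2 spread from 212 to 499.5 in hair cells.

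Atf4 mRNA rose in these hair cells while the synthetases known as its targets mostly did not. Atf4 scored 186, 211 and 183 in control and 651, 757 and 608 in treated hair cells. The groups were widely separated, and the rise was 3.47-fold, or 1.80 ± 0.11 on the log2 scale (adjusted p = 8.62e-06). Ddit3, which encodes the stress factor CHOP, scored 26.2, 29.4 and 24.0 and then 68.3, 82.8 and 67.3, a rise of 1.46 ± 0.14 (adjusted p = 5.58e-05). Asns, asparagine synthetase, scored 86.4, 88.9 and 78.7 and then 78.2, 86.3 and 61.1, and its log2 fold change was -0.18 ± 0.30 (unadjusted p = 0.551).

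Of the 13 cytosolic synthetases known as Atf4 targets, 1 was called in hair cells (Tars, 7.69% against 27.5% of all genes), and the median log2 fold change was -0.01. The other 12 had log2 fold changes between -0.21 (Sars) and 0.20 (Cars). The highest upper end of their 95% intervals was 0.42 (Cars), so that rises of more than 1.34-fold lie outside all 12 intervals. Of the 7 cytosolic synthetases not in that list, 3 were called (Rars, Farsa and Qars), 42.9% against 27.5% of all genes, with a median of 0.15. Mars shares 68 bases of exon with Ddit3 on the opposite strand, where reads of the 2 genes cannot be told apart without strand. Its log2 fold change was -0.14 ± 0.07 (unadjusted p = 0.0747).

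**Figure D4:**
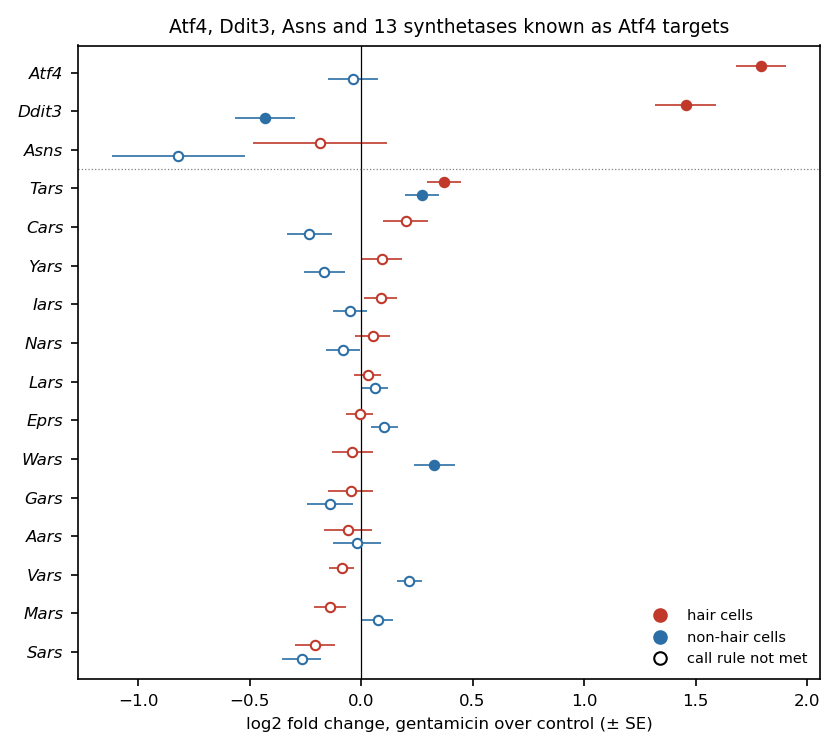
Log2 fold change with standard error, gentamicin over control, for Atf4, Ddit3 and Asns (above the dotted line) and for the 13 cytosolic synthetases known as Atf4 targets (below it), in hair cells (red) and non-hair cells (blue). Filled points met the call rule. Atf4 and Ddit3 lie at 1.80 and 1.46 in hair cells, and the 12 synthetases other than Tars lie between -0.21 and 0.20 there.

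The core of the element that Atf4 binds together with C/EBP factors, TGATGNAA, was looked for on both strands of RefSeq promoter windows (GRCm38.p6) of 300 bases, 250 before and 50 after the start. Windows were matched by symbol for 27 of 36 members. The motif was in the windows of 5 of these 27 genes and of 4.51% of all 27025 genes with a window (3.97% of 32851 windows, since some genes have several). All 5 are cytosolic synthetases of the Atf4 target list, of which 8 had a window, while 0 of 14 mitochondrial members and 0 of 5 other cytosolic members with a window held it. A match is only a run of letters and does not show binding. The 30 bases around 1 match in each gene are shown so that the members holding the motif can be compared, with the match in capitals, 5′ to 3′ along the gene.
Tars, chr15:11399655-11399684, minus strand: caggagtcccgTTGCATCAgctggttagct
Aars, chr8:111033840-111033869, plus strand: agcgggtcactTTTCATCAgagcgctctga
Gars, chr6:55037960-55037989, plus strand: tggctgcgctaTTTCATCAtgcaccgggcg
Iars, chr13:49682126-49682155, plus strand: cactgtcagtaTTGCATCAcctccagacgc
Yars, chr4:129189895-129189924, plus strand: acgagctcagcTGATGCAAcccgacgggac

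The first base of the match shown lay 15 bases before the start of Tars, 30 before that of Gars, 9 after that of Aars, 7 after that of Iars and 3 after that of Yars. Of these 5 genes Tars rose in treated hair cells, and the other 4 had log2 fold changes of -0.06 ± 0.11 (Aars), -0.05 ± 0.10 (Gars), 0.09 ± 0.07 (Iars) and 0.09 ± 0.09 (Yars), none of which passed. Among the matches shown, those of Tars and Iars read TTGCATCA, those of Gars and Aars TTTCATCA, and that of Yars TGATGCAA. Of the members called in hair cells, 6 had a window and Tars was the 1 with a match, while Rars and Pars2 had no window. The 250 bases before the start of Tars, chr15:11399659-11399908 on the minus strand, are given for that reason, again with the match in capitals.
Tars: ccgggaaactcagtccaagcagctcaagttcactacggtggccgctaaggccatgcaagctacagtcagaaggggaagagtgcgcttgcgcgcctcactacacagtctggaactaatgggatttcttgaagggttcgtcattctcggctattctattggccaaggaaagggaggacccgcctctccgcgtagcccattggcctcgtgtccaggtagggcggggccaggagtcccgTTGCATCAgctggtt

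The non-hair cells were exposed to the same dose, and their response to it was tested by the same rule. Gentamicin changed 7 of 36 members, or 19.4%, against 5.44% of all genes tested. The 6 that rose are 16.7% of members against 3.18% of all genes, and the 1 that fell 2.78% against 2.26%. The median log2 fold change was 0.06 over the members and -0.01 over all genes. At an adjusted p under 0.05, 0 members and 0.342% of all genes passed with limma, so the calls rest on the unadjusted p, which was under 0.01 for 8 members and under 0.05 for 12.

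The rises in non-hair cells were in Wars, Rars, Hars and Tars among cytosolic members and in Ears2 and Tars2 among mitochondrial ones. Wars scored 55.4, 53.3 and 63.4 in control and 67.8, 73.8 and 74.0 in treated non-hair cells, a rise of 0.33 ± 0.09 (adjusted p = 0.121). Rars scored 47.9, 46.0 and 47.1 and then 56.4, 59.5 and 57.0, a rise of 0.29 ± 0.06 (adjusted p = 0.0730). Hars, the cytosolic histidyl-tRNA synthetase, scored 47.7, 45.9 and 49.9 and then 56.7, 62.2 and 56.2, a rise of 0.29 ± 0.08 (adjusted p = 0.114). Treated and control replicates did not overlap in these genes, which were picked by a test on the same values.

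Tars scored 59.0, 59.3 and 61.1 in control and 64.8, 75.7 and 77.0 in treated non-hair cells, a rise of 0.27 ± 0.08 (adjusted p = 0.119). Tars2 went from 27.4, 28.0 and 30.5 to 35.9, 37.5 and 33.8, a rise of 0.32 ± 0.07 (adjusted p = 0.0665). Ears2, for mitochondrial glutamate at chr7:122037213-122067263, went from 11.2, 7.77 and 9.03 to 12.8, 12.7 and 12.2, a rise of 0.44 ± 0.14 (adjusted p = 0.149). The groups did not overlap in these genes either, though for Ears2 the highest control came near the lowest treated replicate. Vars, the valyl-tRNA synthetase, scored 103, 109 and 110.3 and then 122, 122 and 129.7, with an unadjusted p of 0.00295 and a fold change of 1.16 that missed the rule.

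Rars and Tars were the 2 members called in both populations, 25.0% of the 8 called in hair cells and 28.6% of the 7 called in non-hair cells. The same shares over all genes are not given here, so this overlap is not read as a trait of the members. The difference between the responses did not pass for either, at 0.14 ± 0.09 for Rars (95% interval -0.06 to 0.34) and 0.10 ± 0.11 for Tars (-0.14 to 0.33). The 14 cytosolic members Aars, Cars, Dars, Eprs, Farsb, Gars, Iars, Kars, Lars, Mars, Nars, Sars, Vars and Yars and the 9 mitochondrial members Aars2, Cars2, Hars2, Iars2, Mars2, Rars2, Sars2, Vars2 and Wars2, 23 in all, were called in neither population, with log2 fold changes between -0.21 and 0.26 in hair cells and between -0.27 and 0.25 in non-hair cells. Without control replicate 2 of the non-hair cells 2 members were called, and without gentamicin replicate 2 there were 3. Rars and Tars2 held in all 6 such fits, Hars in 4, Lars2 in 3, Wars and Tars in 2 and Ears2 in 1, and in a fit of the non-hair cells alone 4 members were called, without Tars, Ears2 and Tars2.

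Whether a synthetase responded differently in the 2 populations was read from the difference between the responses itself, at an adjusted p under 0.05. It passed for 5 of 36 members, or 13.9%, where 13.4% of all genes did, and by direction for 2 (5.56%) against 6.85% of genes with the greater log2 fold change in hair cells, and for 3 (8.33%) against 6.57% with the lesser one. Yars2 rose by 0.81 ± 0.14 more in hair cells than in non-hair cells on the log2 scale (adjusted p = 0.00568). In non-hair cells Yars2 scored 16.003, 15.4 and 16.1 in control and 17.8, 20.3 and 16.9 after gentamicin, a log2 fold change of 0.20 ± 0.10 (unadjusted p = 0.0641). Its control levels gave a log2 difference between populations of 0.01 (95% interval -0.21 to 0.22).

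Nars2 rose by 0.55 ± 0.15 more in hair cells (adjusted p = 0.0348), where non-hair cells scored 13.6, 14.03 and 13.3 and then 16.9, 13.1 and 14.95. Qars differed by -0.32 ± 0.09 (adjusted p = 0.0306). Its scores in non-hair cells, 116, 108 and 111 and then 102, 97.9 and 99.8, gave a log2 fold change of -0.16 ± 0.06 (unadjusted p = 0.0236), so that its treated replicates lay below its controls in both populations. Tars2 differed by -0.36 ± 0.10 (adjusted p = 0.0313): hair cells scored 78.4, 76.7 and 80.0 and then 76.7, 79.0 and 73.2, where the groups overlapped. Vars differed by -0.30 ± 0.08 (adjusted p = 0.0315), with 123, 123 and 117 and then 114, 118 and 109.9 in hair cells. Fars2, Pars2, Wars and Cars did not pass, with adjusted p of 0.151, 0.0800, 0.0842 and 0.0663.

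The difference for Yars2 passed in all 12 fits that leave out 1 replicate. Those of Qars, Vars, Nars2 and Tars2 passed in 5, 4, 3 and 3 of them, and between 1 and 5 members passed in each, with 1 left without control replicate 1 or 2 of the hair cells or control replicate 2 of the non-hair cells.

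Lars2, the mitochondrial leucyl-tRNA synthetase at chr9:123366927-123462666, was the member that fell in non-hair cells, and its replicates spread most of all members in every group but treated non-hair cells. It scored 294, 212 and 499.5 in control hair cells, 286, 189 and 248 in treated hair cells, 555, 758 and 499.6 in control non-hair cells and 298, 335 and 287 in treated non-hair cells. All treated non-hair cell replicates lay below their controls, while in hair cells the groups overlapped. On the log2 scale it fell by 0.96 ± 0.27 in non-hair cells (unadjusted p = 0.00453, adjusted p = 0.122), and its log2 fold change in hair cells was -0.41 ± 0.27 (unadjusted p = 0.162). With 1 replicate left out the hair cell value ran from -0.69 to -0.07, the latter without control replicate 3, which scored 499.5. The SD of its log2 score was 0.62 in control hair cells, 0.31 in treated hair cells and 0.31 in control non-hair cells, where the median member had 0.07, 0.08 and 0.09. In treated non-hair cells it was 0.12 against a median of 0.11, and Fars2 had the highest, 0.30.

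Because of that spread, Lars2 was set beside Rn45s, the ribosomal RNA precursor, a gene chosen after the values were seen. Rn45s scored 1948, 1785 and 2369.7 in control hair cells, 1028, 631 and 1157 in treated hair cells, 2328, 3398 and 1793 in control non-hair cells and 1381, 1663 and 1352 in treated non-hair cells. Its replicates ranked in the same order as those of Lars2 in 3 of 4 groups, and its log2 fold change was -1.15 ± 0.26 in hair cells and -0.73 ± 0.26 in non-hair cells. The part of ribosomal RNA in the scores of Lars2 was not tested. The call of Lars2 was lost without control replicate 2 or gentamicin replicate 1 or 3 of the non-hair cells, with log2 fold changes between -1.08 and -0.78 over these fits.

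Genes that act around the synthetases were counted from lists of the same pathways. Of 7 proofreading and peptidyl-tRNA hydrolase genes, 2 rose in hair cells (Prorsd1 by 0.49 and Ptrhd1 by 0.43 on the log2 scale) and 2 in non-hair cells (Dtd2 by 0.44 and Aarsd1 by 0.36). That is 28.6% in each, where 27.5% of all genes were called in hair cells and 5.44% in non-hair cells. By rises alone the shares of all genes were 12.7% and 3.18%. Of 5 genes that charge selenocysteine tRNA or place selenocysteine, 2 rose in hair cells: Sepsecs, which makes the selenocysteinyl-tRNA, by 0.88 ± 0.10 and Secisbp2 by 0.52 ± 0.08, and 0 were called in non-hair cells. The 2 are 40% of that list, where 27.5% of all genes were called in hair cells and 12.7% rose. In non-hair cells 5.44% of all genes were called. Of 4 genes of the mitochondrial glutaminyl-tRNA amidotransferase and initiator formylase, Mtfmt, the formylase, was called, at -0.35 ± 0.10 in hair cells, and 0 in non-hair cells. Mtfmt alone is 25% of the 4, near the 27.5% of all genes called in hair cells. Tarsl2, a synthetase gene outside the members, did not meet the rule in either population.

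Of 21 genes of tRNA export and end processing, 6 rose and 2 fell in hair cells, or 38.1% against 27.5% of all genes. By direction 28.6% rose and 9.52% fell, where 12.7% and 14.8% of all genes did. Pop1 and Rpp38, subunits of the RNase P complex that trims the front of tRNA precursors, rose by 1.66 ± 0.19 and 0.98 ± 0.18 on the log2 scale. Tsen54, of the splicing endonuclease, and Elac1, which trims the other end, were at -0.94 ± 0.12 and -0.67 ± 0.13. In non-hair cells 4 rose, Pop1 by 0.66, Elac2 by 0.46, Thg1l by 0.44 and Xpo5 by 0.30. Of 20 genes of RNA polymerase III, which transcribes tRNA, 4 rose and 2 fell in hair cells, or 30% against 27.5%. Polr3b rose by 0.57 ± 0.09 in hair cells and by 0.56 ± 0.09 in non-hair cells, where it was the 1 gene of the list called, and Polr3e was at -0.40 ± 0.08 in hair cells. Polr3b alone is 5% of the list, near the 5.44% of all genes called in non-hair cells.

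Of 24 amino acid response genes, Atf4, Ddit3 and Ppp1r15a were the 3 that rose in hair cells and Vldlr (-1.38 ± 0.35) and Nupr1 (-0.93 ± 0.20) among 4 that fell, and the median was -0.14. The share called there, 29.2%, was near the 27.5% of all genes. In non-hair cells 0 rose and 7 fell, 29.2% where 5.44% of all genes were called and 2.26% fell, with a median of -0.26. They included Trib3 (-1.18 ± 0.38), Stbd1 (-0.95 ± 0.22), Cebpb (-0.93 ± 0.14), Chac1 (-0.85 ± 0.23) and Ddit3 (-0.43 ± 0.14), while Atf4 scored 272, 292 and 242 and then 257, 236 and 294, a log2 fold change of -0.04 ± 0.11. Of 12 amino acid transporters, 0 rose and 2 fell in hair cells (Slc6a9, -0.53, and Slc38a2, -0.27), and Slc38a2 fell in non-hair cells (-0.29). These are 16.7% against 27.5% of all genes in hair cells and 8.33% against 5.44% in non-hair cells. By falls alone the shares of all genes were 14.8% and 2.26%. Of 12 genes for eIF2, its kinases and its exchange factor, 6 rose and 0 fell in hair cells. That is 50%, where 27.5% of all genes were called and 12.7% rose. The largest rises were those of Eif2b2 (0.65 ± 0.07), Eif2s1 (0.41 ± 0.09), Eif2b3 (0.35 ± 0.07) and Eif2b4 (0.35 ± 0.08). In non-hair cells Eif2b3 rose by 0.39 and Eif2ak1 by 0.29. These 2 are 16.7% of the list, where 5.44% of all genes were called and 3.18% rose.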

How the data were processed

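RNA of sorted hair cells and non-hair cells was sequenced with 50 bp single-end reads from TruSeq mRNA libraries. The authors trimmed the reads, aligned them to mm10 with TopHat2 in PartekFlow and deposited, for each gene and replicate, a normalized score. The study's methods describe RPKM, yet gene length does not enter the values: with 1 taken off, between 82.8 and 83.8% of low values were whole multiples of 1 read within 0.1 read. The scores were therefore used as reads scaled per replicate, not as counts.

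Log2 scores of genes with at least 100 reads over all replicates were analysed in limma 3.58.1 (R 4.3.3), using 1 model of all 4 groups, moderated variances with a trend, two-sided tests and Benjamini-Hochberg adjustment over 16077 genes. Fold changes are on the log2 scale of score, offset included, which understates the change of low genes. Depth was 22400590 to 28152088 reads on genes, so genes with few reads are less precise. Exon lengths, overlaps and positions came from GENCODE M21 and promoters from RefSeq. 13 members share exon bases with another gene, and the counting is not stated to use strand.

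The members were given by symbol, and all were described. Members called for gentamicin and the 5 with the widest control difference either way are given per replicate, other lists by counts with at most 4 called genes named, plus Atf4, Ddit3, Asns, Aimp1, Aimp2 and Eef1e1. Members and lists were chosen with earlier results of these data known. The members given per replicate were picked on these same values. A lack of overlap between their groups is therefore description and no further support. Deviations of same-numbered replicates correlated at 0.20 to 0.32 between the control populations, in every pair. The blocked fit is therefore given beside that comparison where it changes a call. Its block spans all 4 groups, and no paired fit of the controls alone was run. Between treated and control replicates, and for the difference between responses, the numbers were not taken as pairs. Alternatives were TMM scaling, total reads, an offset of 0.1, other read minimums, a replicate block, no variance trend, fits of the compared groups alone, subtraction of other cells' RNA, other thresholds and leaving out each replicate. No proteins were analysed here, and 1 sequence and 1 gene outside the members are not reported here.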

Additional observations from a re-analysis of the deposited data

Results flagged for a closer look

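The response to gentamicin differed between hair cells and non-hair cells, by the test of the difference itself, for 5 synthetases: Yars2 (0.81 on the log2 scale), Nars2 (0.55), Qars (-0.32), Vars (-0.30) and Tars2 (-0.36), where a positive value is a greater log2 fold change in hair cells. These 5 are 13.9% of the members, near the 13.4% of all genes that passed the same test. The difference for Yars2 held with any 1 replicate left out, and the others did not. Outside the members, Atf4, Ddit3, Asns, Aimp1, Aimp2 and Eef1e1 were looked at by name. The difference passed for Atf4 (1.83 ± 0.16, adjusted p = 0.000338), Ddit3 (1.88 ± 0.19, adjusted p = 0.000652) and the scaffold gene Eef1e1 (0.49 ± 0.14, adjusted p = 0.0356). These were not the only listed genes to pass. Cebpb, Cebpg, Ppp1r15a, Pop1, Rpp38, Sepsecs and Eif2b2 passed with the greater log2 fold change in hair cells. Polr3e, Aarsd1, Elac1 and Tsen54 passed with the lesser one.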

How the results depend on the processing

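Of the 4 counts of members called, that between control populations (24) stayed within 1.5 times under every alternative, at 19 to 22 with 1 replicate left out. In hair cells the count of 8 became 2 (Yars2 and Nars2) with a fold change above 1.5, and 5 to 8 with 1 replicate left out. In non-hair cells the count of 7 became 4 in a fit of the compared groups alone, 0 at an adjusted p under 0.05 and 1 (Lars2) with a fold change above 1.5, and 2 to 6 with 1 replicate left out. The difference between responses passed for 3 rather than 5 members with scaling by total reads (Yars2, Nars2 and Cars) and for 3 with no trend of the variance (Yars2, Nars2 and Tars2), and for 1 to 5 with 1 replicate left out. The causes were not tested. Scaling by total reads gave 2774 higher and 1591 lower genes in hair cells, against 2037 and 2381, and 11 members. No called member changed sign. Between treated and control samples the replicate numbers did not mark pairs: deviations of same-numbered replicates correlated at 0.04 to 0.05 in hair cells and -0.23 to 0.68 in non-hair cells. With the replicate block, 8, 6, 5 and 23 members were called in hair cells, in non-hair cells, for the difference and between controls. Ears2 in non-hair cells and Sars between controls lost their calls, and no other call of a member changed.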
